A study of Mus musculus with 4 samples.

Results

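The Slc5 genes encode sodium-coupled transporters, carriers that bring iodide, sugars, myo-inositol, choline, vitamins or short-chain monocarboxylates into a cell together with sodium. Those taken here, by gene symbol from the deposited table, were *Slc5a1*, *Slc5a2*, *Slc5a3*, *Slc5a5*, *Slc5a6*, *Slc5a7*, *Slc5a8*, *Slc5a9*, *Slc5a10* and *Slc5a11*, which make 10 of 22479 gene names in 30506 loci. The family was chosen by the measured levels of both genotypes in this same table, so the differences between genotypes below are a description and carry no test. Poly(A) RNA from whole mammary gland, described as virgin by the study, was sequenced from 4 mice of 2 months of age. The mice were on a mixed 129SV::FVB/N::C57BL/6 background. Of these, 2 mice had the miR-21 locus intact (*miR-21+/+*) and 2 lacked it in every cell of the body (*miR-21-/-*), and no other allele or agent was given for either genotype. The deposited values are fragments scaled to transcript length and to the mapped reads of the library (FPKM), with 1 value per genotype that combines its 2 mice. No spread between mice could be computed, so each value below stands without an error and no p-value is given.

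The iodide symporter *Slc5a5* is best known from thyroid follicle cells, and the mammary gland uses the same protein to move iodide from blood into milk. It sits on the basolateral membrane and depends on the sodium gradient that the Na+/K+ pump maintains. Its relatives serve other tasks: *Slc5a1* and *Slc5a2* are the glucose carriers of intestine and kidney, *Slc5a3* and *Slc5a11* carry myo-inositol, *Slc5a6* carries biotin, pantothenate and lipoate, *Slc5a7* recovers choline in cholinergic nerve endings, and *Slc5a8* carries lactate, butyrate and other monocarboxylates. *Slc5a9* and *Slc5a10* are sugar carriers with a preference for mannose or fructose.

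The study sought the transcripts that miR-21 represses, and a microRNA binds mainly through bases 2 to 8, its seed. The mature miR-21 sequence from RefSeq is shown with the seed in capitals, because the sites searched in the 3′ UTRs are its complement.
mmu-miR-21a-5p: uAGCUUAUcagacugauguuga
The seed match read on the transcript is ATAAGCT, and 3 of the 10 members held a site in their longest annotated 3′ UTR (GENCODE, NCBIM37, the same assembly as the mm9 of the deposited loci). *Slc5a8* and *Slc5a7* had 1 match each to all 7 seed bases, and *Slc5a6* had 1 match to bases 2 to 7 followed by an A. These 28-base windows are given in transcript orientation with the matched bases in capitals.
Slc5a8: gtttgtttcatgaaATAAGCTgaacata
Slc5a7: aatattgtatgaacATAAGCTtgaaatt
Slc5a6: atcctctaaactccTAAGCTAagtcacc
The matched bases lie at chr10:88391884-88391890 on the plus strand for *Slc5a8*, at chr17:54413229-54413235 on the minus strand for *Slc5a7* and at chr5:31338514-31338520 on the minus strand for *Slc5a6*. A site of either kind, or one that joins both, was present in 30% of the members and in 9.59% of 19915 genes with an annotated 3′ UTR. The members' 3′ UTRs had a median of 1569 nt against 893 nt over all genes, and a longer UTR holds more matches of any 7 bases. *Slc5a5* and *Slc5a9* held no site in 3′ UTRs of 975 and 2163 nt, nor did *Slc5a3* in 8260 nt or *Slc5a1* in 2462 nt.

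At the locus of the deleted gene, *Mir21* shares its row with its host gene *Vmp1* (chr11:86397276-86497345), so the row does not measure the microRNA. That row read 42.5 FPKM in *miR-21+/+* and 68.2 FPKM in *miR-21-/-* tissue, a log2 ratio of 0.68. It therefore gave no check of the genotype labels.

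The members fell into those clearly present in the gland and those near the limit of detection. Above 5 FPKM in at least 1 genotype, the minimum the study used, were 5 members, and 3 of these were 2-fold or more higher in *miR-21-/-* tissue: *Slc5a5*, *Slc5a8* and *Slc5a9*. Over all 9714 named loci above that minimum, 1.25% were 2-fold or more higher. None of the 5 members was 2-fold or more lower, against 1.48% of the 9714 loci, and since the family was selected on this contrast nothing is read from these shares. The value just inside the minimum was that of *Slc5a9*, at 5.12 FPKM in *miR-21-/-* tissue, and just outside it was *Slc5a1*, at 3.10 FPKM. Of the 6 members above 1 FPKM in a genotype, 5 had the higher value in *miR-21-/-* tissue. The 6 had a median log2 ratio of 1.33, beside −0.03 over 13565 named loci above 1 FPKM. That median also comes from a family selected on this contrast, so nothing is read from it.

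**Figure D1:**
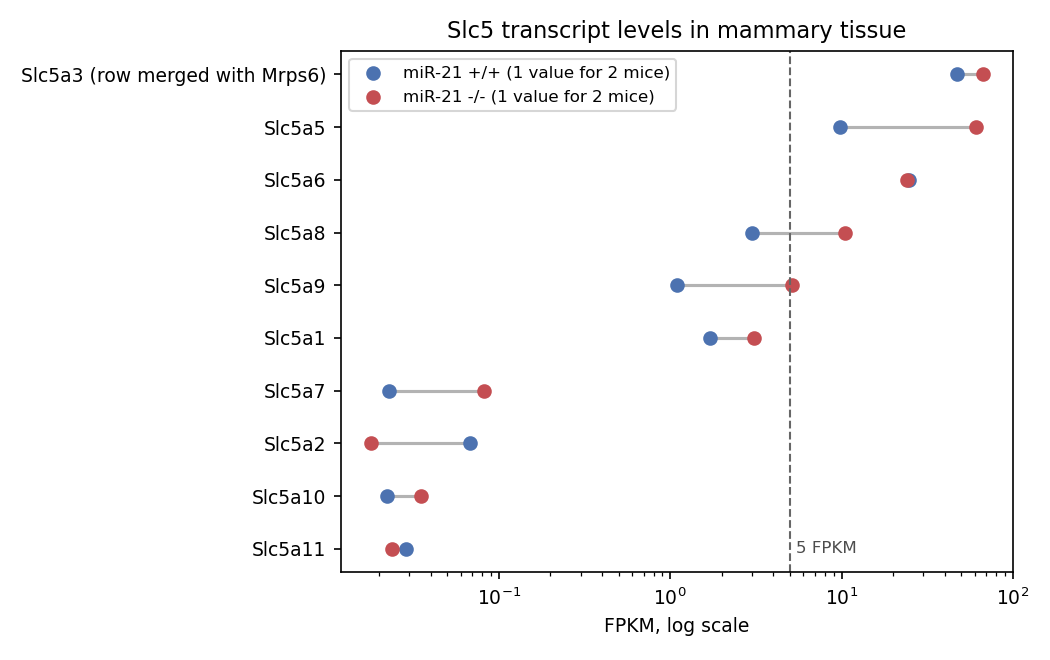
FPKM (log axis) of each of the 10 members in *miR-21+/+* (blue) and *miR-21-/-* tissue (red), with 1 value per genotype for 2 mice and so no error bars. The dashed line marks 5 FPKM. *Slc5a5* runs from 9.74 to 61.2 FPKM, *Slc5a6* shows nearly coinciding points at 24.7 and 24.2 FPKM, and 4 members lie below 0.1 FPKM in both genotypes.

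*Slc5a5*, the iodide symporter, had the largest difference of the members above 5 FPKM. It measured 9.74 FPKM in *miR-21+/+* and 61.2 FPKM in *miR-21-/-* tissue, 6.28-fold higher without miR-21 (log2 ratio 2.65). This ratio was the 5th highest of the 9714 named loci above 5 FPKM. Of those loci, 32.8% lay below *Slc5a5* in *miR-21+/+* tissue and 90.5% in *miR-21-/-* tissue, so the transcript stood in the lower part of the expressed range with miR-21 and near its top without. Among the members it passed *Slc5a6* and stood second only to *Slc5a3*. Its share of the summed FPKM of the 10 members was 11.1% in *miR-21+/+* and 35.8% in *miR-21-/-* tissue. The gene has 15 exons on the minus strand of chr8:73406782-73416656 and encodes a protein of 618 residues.

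Of the genes around *Slc5a5*, those given here differed little between genotypes. *Ccdc124*, 9392 bp away, measured 22.6 and 23.5 FPKM in *miR-21+/+* and *miR-21-/-* tissue. *Mtap1s*, which encodes a microtubule-associated protein 13216 bp away, measured 6.88 and 7.03 FPKM. The log2 ratios of these genes were 0.05 and 0.03, so neither shared the difference seen at *Slc5a5*.

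*Slc5a8*, the monocarboxylate carrier that holds the 7-base seed match shown above, was the closest relative of *Slc5a5* among the members, with 47.9% identical residues. It measured 3.003 FPKM in *miR-21+/+* and 10.5 FPKM in *miR-21-/-* tissue, 3.51-fold higher (log2 ratio 1.81), the 23rd highest ratio of the 9714 loci. It lies at chr10:88348617-88393722 on the plus strand in 15 exons and encodes 611 residues. Its nearest gene within 20 kb, *Ano4*, was below 1 FPKM in both genotypes, at 0.196 and 0.478 FPKM. The study itself names *Slc5a8* as a putative miR-21 target, from genes higher in these same data that also had a predicted conserved site. The higher level given here is therefore the same evidence and not a second observation. *Slc5a9*, the mannose and fructose carrier, measured 1.10 FPKM in *miR-21+/+* and 5.12 FPKM in *miR-21-/-* tissue, 4.65-fold higher (log2 ratio 2.22) and 12th of the 9714. It lies at chr4:111547285-111575525 on the minus strand in 15 exons. Both genes were thus below the 5 FPKM minimum in *miR-21+/+* tissue and above it without miR-21, whereas *Slc5a5* was above it in both.

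**Figure D2:**
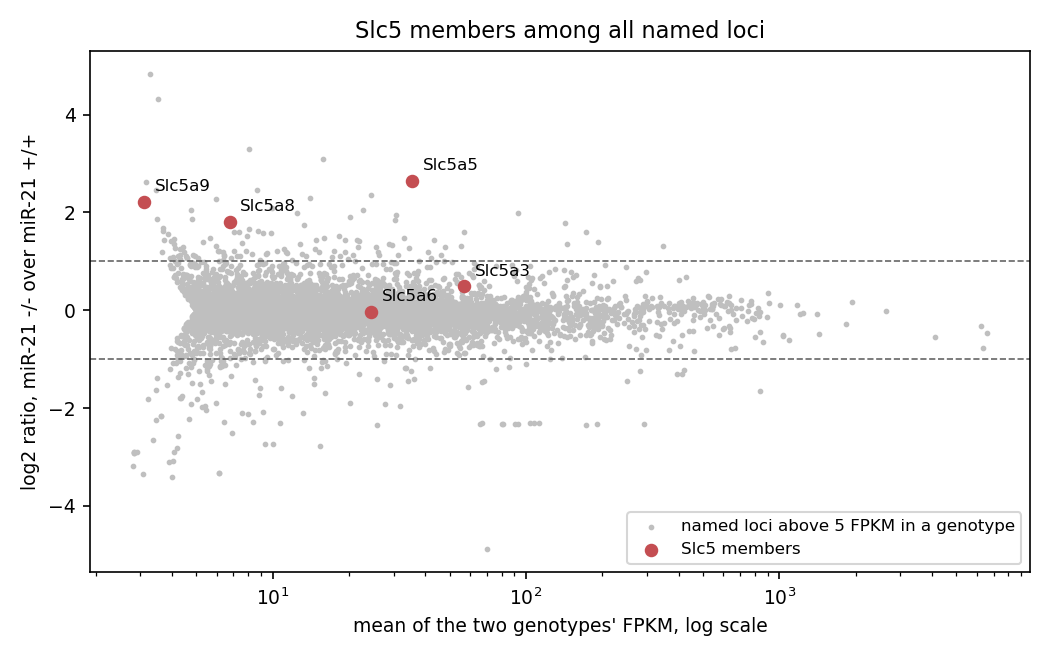
Log2 ratio of *miR-21-/-* over *miR-21+/+* (vertical) against the mean FPKM of both genotypes (horizontal, log axis) for the 9714 named loci above 5 FPKM in at least 1 genotype (grey) and the 5 members among them (red). Dashed lines mark a 2-fold difference either way. *Slc5a5*, *Slc5a8* and *Slc5a9* stand above the upper line at 2.65, 1.81 and 2.22, while *Slc5a3* and *Slc5a6* lie between the lines.

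The members with the highest FPKM in *miR-21+/+* tissue were *Slc5a3* and *Slc5a6*. The row of *Slc5a3*, the myo-inositol carrier, also names *Mrps6*, a mitochondrial ribosomal protein gene at the same place (chr16:92058567-92112472), and the contribution of each cannot be told apart. It measured 47.5 and 66.8 FPKM, 1.41-fold higher in *miR-21-/-* tissue (log2 ratio 0.49) and the highest value of the 10 members in both genotypes. *Slc5a6*, the vitamin carrier, measured 24.7 FPKM in *miR-21+/+* and 24.2 FPKM in *miR-21-/-* tissue, a log2 ratio of −0.03. This transcript, which also holds a seed match, sits with *Cad* and *0610007C21Rik* in 1 locus (chr5:31325567-31380928). The table marks the locus as one for which the calculation failed in the authors' software, so its level is uncertain. For comparison, 91.8% of the 9714 loci were within 1.5-fold between genotypes, as *Slc5a3* and *Slc5a6* were.

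*Slc5a1*, the intestinal glucose and galactose carrier, was low but detected, at 1.71 FPKM in *miR-21+/+* and 3.10 FPKM in *miR-21-/-* tissue, 1.81-fold higher. Its FPKM was above that of *Slc5a9* in *miR-21+/+* tissue and below it in *miR-21-/-* tissue. The remaining 4 members were below 0.1 FPKM in both genotypes and no fold is given for them. *Slc5a7*, the choline carrier, measured 0.0230 FPKM in *miR-21+/+* and 0.0816 FPKM in *miR-21-/-* tissue. *Slc5a2*, the kidney glucose carrier, measured 0.0683 and 0.0181 FPKM. *Slc5a10* measured 0.0222 and 0.0351 FPKM, and *Slc5a11* measured 0.0288 and 0.0240 FPKM. A rough guide to depth is the commonest low value of FPKM multiplied by transcript length in kb. Taken over genes with 1 coding transcript of more than 1500 nt, it was 0.020 to 0.022 in *miR-21+/+* and 0.024 to 0.026 in *miR-21-/-* tissue. If that is what 1 read was worth, these 4 members rest on 16.9 reads or fewer in each genotype and *Slc5a5* on about 1359 and 7169. The other 3 genes of the family in the table were also near 0: *Slc5a12* at 0.0703 and 0.0526 FPKM, *Slc5a4b* at 0.0135 and 0.0132 FPKM, and *Slc5a4a* at 0.0136 FPKM in *miR-21+/+* and listed at 0 in *miR-21-/-* tissue.

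Summed over the 10 members, the family measured 87.8 FPKM in *miR-21+/+* and 171 FPKM in *miR-21-/-* tissue. Without the row merged with *Mrps6*, the other 9 members summed to 40.4 and 104 FPKM, a log2 ratio of 1.37. *Slc5a5* alone made up most of that gain, with a difference between genotypes of 51.5 FPKM.

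By protein sequence the members fell into groups. Over the 45 pairs of proteins translated from GENCODE, identity ran from 21.3% to 62.1% with a median of 27.1%. *Slc5a5*, *Slc5a6* and *Slc5a8* formed one group, in which *Slc5a6* and *Slc5a8* shared 45.0% and *Slc5a5* and *Slc5a6* shared 39.2%. The sugar and inositol carriers formed another, with *Slc5a1* and *Slc5a2* at 62.1% and *Slc5a9* and *Slc5a10* at 61.2%. *Slc5a7* stood apart, with 27.5% at most. The 3 members that were 2-fold or more higher came from both groups: *Slc5a9* shared 26.2% with *Slc5a5* and 26.7% with *Slc5a8*. Within the first group *Slc5a6* had nearly equal FPKM in both genotypes, and within the second the closest relative of *Slc5a9*, *Slc5a10*, was near 0.

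**Figure D3:**
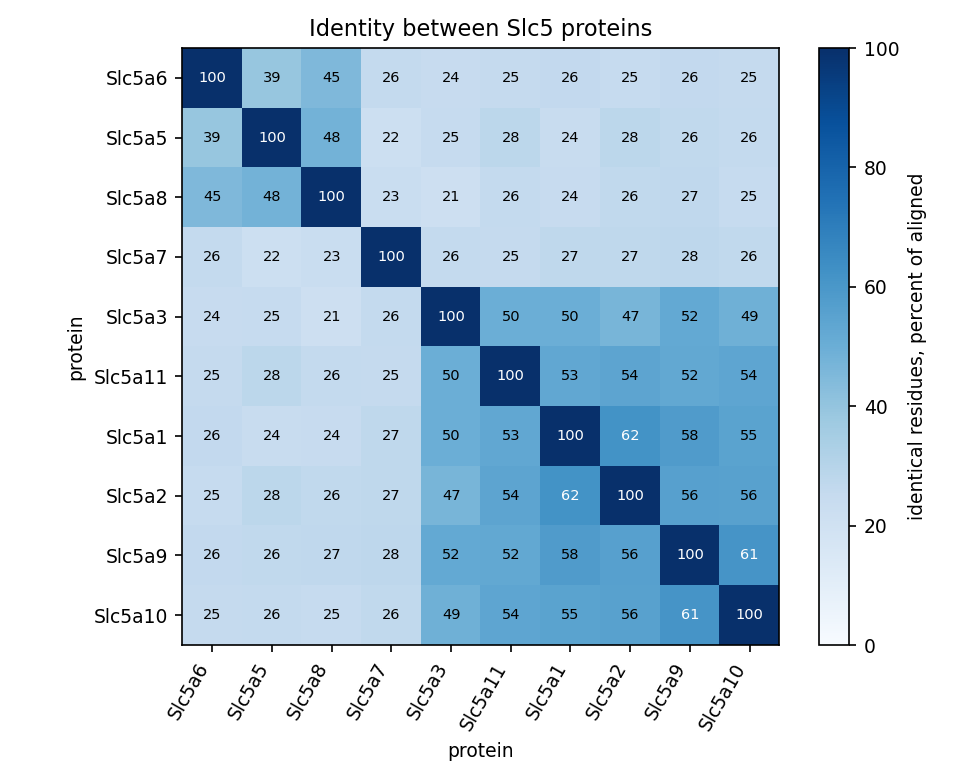
Percent of identical residues between each pair of the 10 Slc5 proteins, ordered by similarity (both axes are the proteins, and the colour scale runs from 0 to 100%). The block at the upper left holds *Slc5a6*, *Slc5a5* and *Slc5a8*, with *Slc5a5* and *Slc5a8* at 47.9%, and the large block at the lower right holds the sugar and inositol carriers.

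The promoters of *Slc5a5* and *Slc5a8* are shown because these close relatives both had higher levels in *miR-21-/-* tissue. Each window covers 300 bases around the start, most of them before it, in RefSeq (GRCm38.p6, another assembly than that of the loci above), with motif matches in capitals. The motifs searched on both strands were TTCNNNGAA, the sequence that STAT5 recognises, then the GC box GGGCGG, the box written CCAAT and the TATA-type element TATAAA, and no matches in the shown windows overlap.
Slc5a5, chr8:70892708-70893007, minus strand: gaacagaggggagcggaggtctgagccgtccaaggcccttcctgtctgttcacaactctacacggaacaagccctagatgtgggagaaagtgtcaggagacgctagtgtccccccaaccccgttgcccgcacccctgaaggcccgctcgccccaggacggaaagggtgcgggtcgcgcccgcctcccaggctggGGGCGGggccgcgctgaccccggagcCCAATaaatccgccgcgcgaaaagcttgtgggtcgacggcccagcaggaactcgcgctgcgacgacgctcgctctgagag
Slc5a8, chr10:88885742-88886041, plus strand: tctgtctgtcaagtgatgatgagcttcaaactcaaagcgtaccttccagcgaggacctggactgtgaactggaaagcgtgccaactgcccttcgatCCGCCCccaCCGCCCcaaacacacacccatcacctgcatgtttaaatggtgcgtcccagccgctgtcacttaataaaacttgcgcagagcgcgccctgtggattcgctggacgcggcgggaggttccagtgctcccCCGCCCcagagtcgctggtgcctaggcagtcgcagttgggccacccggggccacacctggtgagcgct
The *Slc5a5* window held GGGCGG 56 bases and CCAAT 30 bases before the start, and the *Slc5a8* window held GGGCGG on the other strand (CCGCCC) at 154, 145 and 18 bases before it. Both windows were richer in G and C than the median of 52.7% over 32851 mouse windows, at 67% for *Slc5a5* and 60.7% for *Slc5a8*. They held 29 and 20 CpG dinucleotides against a median of 7. This was not particular to them. The *Slc5a3* window had 73.3% G and C and 38 CpG, and the *Slc5a6* windows had 66% and 70.3% with 26 and 23 CpG. Both of those members differed by less than 2-fold between genotypes. TTCNNNGAA was present in 0 of the 10 windows that matched 8 of the members and in 8.3% of all windows, GGGCGG in 5 of the 10 and 35.7% of all, CCAAT in 3 and 37.4%, and TATAAA in 1 and 13.6%. No window for *Slc5a2* or *Slc5a9* was used here.

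None of the more abundant genes that handle iodide and thyroid hormone had a 2-fold difference. Of 22 genes for iodide and thyroid hormone handling, 5 were above 5 FPKM and none of them was 2-fold or more higher or lower. The 9 genes above 1 FPKM had a median log2 ratio of −0.03. *Tshr*, the thyrotropin receptor, measured 9.66 FPKM in *miR-21+/+* and 11.2 FPKM in *miR-21-/-* tissue. *Ano1*, a chloride channel that can pass iodide, had the highest mean of the list at 32.6 and 48.0 FPKM (log2 ratio 0.56). *Thra*, a thyroid hormone receptor, measured 31.8 and 31.3 FPKM. *Dio2*, the deiodinase that activates thyroid hormone, was below 5 FPKM, at 3.86 and 1.02 FPKM. *Slc26a4*, an iodide exporter of the thyroid, was listed at 0 in both genotypes, and the peroxidase *Lpo* measured 0.0240 and 0.0971 FPKM. Below 1 FPKM, *Kcne2*, a potassium channel subunit that iodide uptake in the thyroid depends on, measured 0.0903 and 0.387 FPKM, and *Dio3*, the deiodinase that inactivates thyroid hormone, measured 0.0298 and 0.341 FPKM. Other genes of the list at such levels went the other way: *Iyd* measured 0.200 and 0.0826 FPKM, *Duox2* 0.148 and 0.0665 FPKM, and *Duoxa2* 0.111 and 0.0474 FPKM.

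Among the subunits of the sodium pump, which makes the gradient that all Slc5 carriers use, 1 gene was 2-fold or more higher and 1 lower of 11 rows above 5 FPKM. The summed FPKM of the list was 532 in *miR-21+/+* and 535 in *miR-21-/-* tissue. The regulatory subunit *Fxyd2* measured 8.50 and 32.01 FPKM (log2 ratio 1.91).

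The lists that go with the other substrates held 1 difference of 2-fold or more. For monocarboxylates, the cargo of *Slc5a8*, none of 7 genes above 5 FPKM was 2-fold different, and *Bsg*, the chaperone of the proton-coupled carriers, measured 181 and 163 FPKM. For hexoses, the cargo of *Slc5a1* and *Slc5a9*, none of 3 was, and the insulin-responsive carrier *Slc2a4* measured 53.6 and 47.6 FPKM. For myo-inositol and other osmolytes none of 7 was, with the aldose reductase *Akr1b3* at 82.1 and 68.4 FPKM. For choline none of 9 was, and *Chpt1*, the choline phosphotransferase, measured 467 and 267 FPKM. For biotin, pantothenate and lipoate, the cargo of *Slc5a6*, all 17 genes above 5 FPKM had the lower value in *miR-21-/-* tissue, with a list median of −0.26. Of these, 1 was 2-fold or more lower, *Acacb*, a biotin-dependent carboxylase, at 49.6 and 20.8 FPKM in a locus marked as failed, while *Pcx*, pyruvate carboxylase, measured 308 and 226 FPKM. Among scaffolds and kinases that act on these carriers none of 5 was, with the kinase *Sgk1* at 43.7 and 34.0 FPKM.

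Cell type markers place these differences in whole tissue, where fewer cells of a type and less RNA per cell cannot be told apart. Of 16 markers of mammary luminal epithelium, the cells in which *Slc5a5* is known to act, all were above 5 FPKM and 14 had the higher value in *miR-21-/-* tissue. Their summed FPKM was 840 in *miR-21+/+* and 1171 in *miR-21-/-* tissue, with a median log2 ratio of 0.52. *Pgr*, the progesterone receptor, was the 1 marker 2-fold or more higher, at 4.71 and 23.3 FPKM. The 2 with the lower value were *Esr1*, at 17.7 and 12.5 FPKM in a locus marked as failed, and *Foxa1*, at 29.5 and 23.2 FPKM. *Krt19*, a luminal keratin with the highest mean, measured 223 and 247 FPKM.

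As a share of that luminal sum, *Slc5a5* came to 1.16% with miR-21 and 5.23% without, a 4.51-fold difference. On the same scale *Slc5a8* was 2.51-fold higher and *Slc5a9* 3.34-fold higher without miR-21, whereas *Slc5a3* came to 1.01-fold. The myoepithelial markers were all higher in *miR-21-/-* tissue too, 8 of 8, with a sum of 369 and 596 FPKM and *Oxtr*, the oxytocin receptor, at 17.5 and 48.7 FPKM. *Acta2*, the contractile actin with the highest mean of this list, measured 222 and 341 FPKM. Skeletal muscle markers also had the higher value in 6 of 6, summing to 1023 and 1690 FPKM, with *Mb*, myoglobin, at 2.07 and 7.54 FPKM and *Acta1* at 328 and 526 FPKM.

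Lymphocyte and most adipocyte markers had the lower value in *miR-21-/-* tissue. Lymphocyte markers summed to 114 and 56.9 FPKM and 5 of the 6 above 5 FPKM were 2-fold or more lower in *miR-21-/-* tissue, among them the B cell marker *Ms4a1* at 5.61 and 0.549 FPKM. The exception, *Cd79a*, in a row that also names *Arhgef1*, measured 70.3 and 48.3 FPKM. Adipocyte markers had the lower value in 5 of 6, with *Fabp4*, a fatty acid carrier, at 7677 and 5523 FPKM and the exception *Lep*, leptin, at 27.7 and 67.9 FPKM. Milk protein genes, of which *Csn2* encodes beta-casein and *Wap* whey acidic protein, were split: of the 8 above 5 FPKM, 4 were 2-fold or more lower and 4 had the higher value, each of these by less than 2-fold. *Csn2* measured 14.8 and 7.21 FPKM and *Wap* measured 7.09 and 2.54 FPKM. *Ltf*, lactoferrin, had the highest mean among the lower ones, at 99.6 and 36.6 FPKM, and *Csn1s2a* measured 13.3 and 4.44 FPKM. *Csn3*, kappa-casein, had the highest mean of the list, at 73.2 and 79.0 FPKM, and *Csn1s1* measured 8.33 and 11.7 FPKM. The part of these cell types in the difference at *Slc5a5*, *Slc5a8* and *Slc5a9* was not tested.

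**Figure D4:**
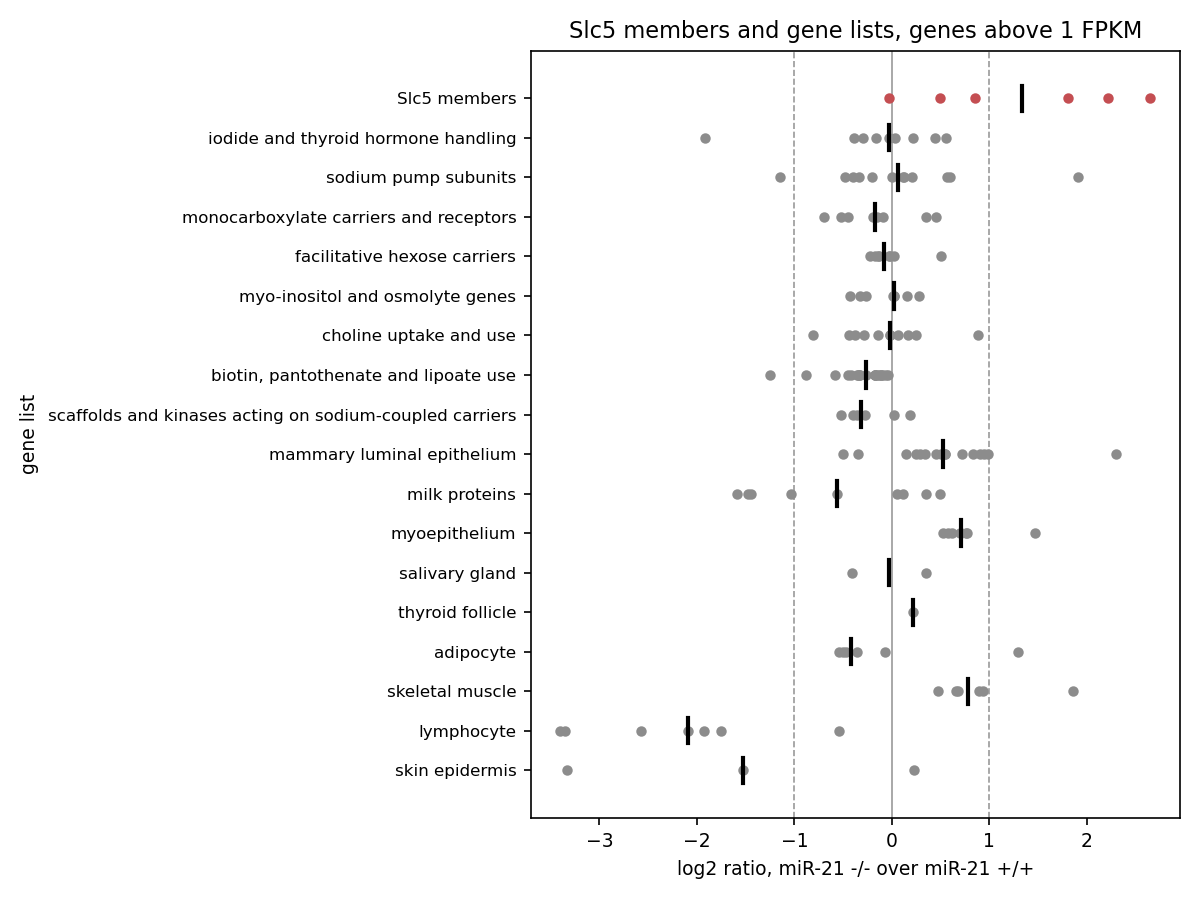
Log2 ratio of *miR-21-/-* over *miR-21+/+* for the Slc5 members (red, top) and for each gene of the pathway and marker lists (grey) above 1 FPKM in a genotype, with a black bar at each list's median. Solid and dashed vertical lines mark no difference and a 2-fold difference. The members' median is 1.33, the luminal and myoepithelial medians are 0.52 and 0.70, the pathway list medians lie between −0.32 and 0.06, and the lymphocyte median is −2.09. The members were selected on this contrast, so nothing is read from their median beside the lists.

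Markers of other organs in which these carriers are known to be abundant, and markers of skin, were also measured. Of the thyroid follicle markers *Foxe1* was listed at 0 in both genotypes, *Pax8* was listed at 0 in *miR-21-/-* tissue and at 0.00802 FPKM in the other genotype, and thyroglobulin (*Tg*) measured 0.0205 and 0.0371 FPKM. *Tshr*, which the gland also expressed, was the 1 marker of the 6 above 5 FPKM. No kidney tubule or intestine marker of 10 exceeded 0.287 FPKM in either genotype, and *Umod* and *Cdx2*, which define kidney tubule and intestine, were listed at 0 in both. Markers of cholinergic neurons were at most 0.155 FPKM, with *Slc18a3*, the vesicular acetylcholine carrier, at 0 in both genotypes. Among 12 salivary gland markers, only *Amy1*, amylase, at 134 and 102 FPKM and *Aqp5*, a water channel, at 54.6 and 69.7 FPKM were above 5 FPKM, and *Prb1* was at 0 in both. *Prol1* measured 0.0178 and 0.251 FPKM, while *Klk1*, at 0.280 and 0.102 FPKM, and *Dcpp3*, at 0.136 and 0.0184 FPKM, went the other way. Of the 5 skin markers 4 had the lower value in *miR-21-/-* tissue, and the 3 above 1 FPKM had a median log2 ratio of −1.53. The keratin *Krt10* measured 5.70 and 1.98 FPKM, *Lor*, loricrin, measured 1.16 and 0.115 FPKM, and *Krt1* measured 0.653 and 0.0688 FPKM. The exception, *Sbsn*, measured 18.9 and 22.1 FPKM.

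*Slc5a5*, *Slc5a8* and *Slc5a9* were more than 2-fold higher under each scaling and pseudocount tried. Each scaling shifts every log2 ratio by the same amount, 0.63 at most, so for the scalings this followed from the starting ratios. Scaled to equal sums over named loci, to equal medians or to equal upper quartiles, *Slc5a5* lay between 2.68 and 2.75 on the log2 scale. Among the scalings, the largest shift came from equal sums over all loci, since 8023 loci without a gene name summed to 2.17 times as much FPKM in *miR-21-/-* as in *miR-21+/+* tissue. Under that scaling *Slc5a5*, *Slc5a8* and *Slc5a9* were still more than 2-fold higher, at 2.02, 1.18 and 1.59, but *Slc5a3* turned to −0.14. *Slc5a9* then no longer exceeded 5 FPKM in either genotype, which left 2 members that were 2-fold or more higher above that minimum. A pseudocount of 1 moved *Slc5a9* further, to 1.54.

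**Figure D5:**
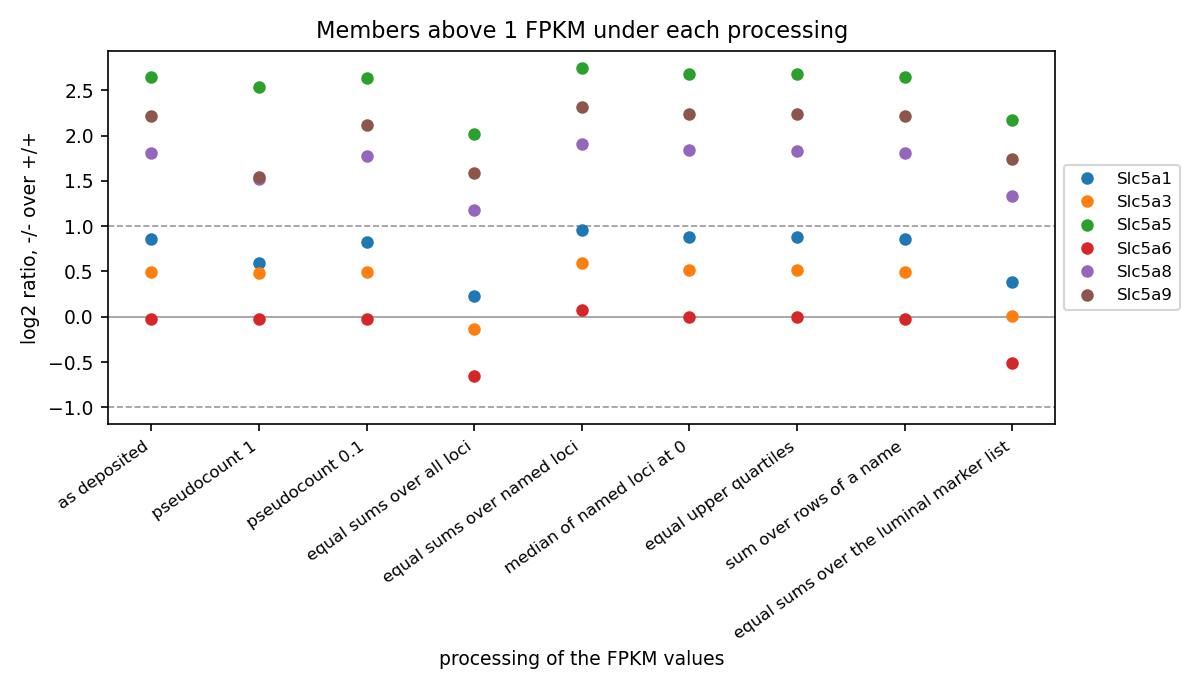
Log2 ratio of *miR-21-/-* over *miR-21+/+* (vertical) for the 6 members above 1 FPKM, coloured by gene, under each processing of the FPKM values (horizontal). Dashed lines mark a 2-fold difference either way. *Slc5a5* ranges from 2.02 to 2.75 and, with *Slc5a8* and *Slc5a9*, stays above the upper dashed line throughout, while *Slc5a3* and *Slc5a6* lie between −0.66 and 0.59.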

How the data were processed

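Mammary RNA from 2 *miR-21+/+* and 2 *miR-21-/-* mice was made into poly(A) libraries (TruSeq) and sequenced on an Illumina HiSeq. Per the labels and the study's methods, the authors aligned reads to mm9 with TopHat and used Cufflinks and Cuffdiff to give FPKM per locus, combining both mice of a genotype, so the deposited FPKM carry no replicate values. CASAVA is also named in the submitters' notes, without a version. The table's own fold change, test statistic, p-value, q-value and call columns were not used. Depth is unknown beyond the rough step value. FPKM ratios were taken without a pseudocount, in Python 3.11.15 with pandas 2.3.3. A gene in several rows kept the row with the highest mean, and a difference of 2-fold with more than 5 FPKM in a genotype was described. Locus starts are printed 1-based. Proteins were translated from GENCODE transcripts and aligned with Biopython 1.88. The code was tested on simulated data. Members and lists were chosen with earlier results of these data known. The named genes were all members, the other Slc5 genes, and per list the gene with the highest mean FPKM and up to 4 with the largest 2-fold differences, while further genes, the promoter motifs other than TTCNNNGAA and the step value were added once values had been seen. Some genes that this rule would name are not reported here.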

Additional observations from a re-analysis of the deposited data

Results flagged for a closer look

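A locus without a gene name at chr4:111543927-111544506, 2778 bp from *Slc5a9* and outside the loci compared above, measured 0.219 FPKM in *miR-21+/+* and 1.02 FPKM in *miR-21-/-* tissue, a log2 ratio of 2.22. It was singled out because it is a signal that no comparison used and was higher than in the control genotype, and *Slc5a9* itself had a log2 ratio of 2.22. The locus is only 580 bp long and low in both genotypes, so its ratio is uncertain. It lies past the annotated 3′ end of *Slc5a9*, which is on the minus strand. Whether it is part of the *Slc5a9* transcript was not tested.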

How the results depend on the processing

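No paired analysis was possible because each genotype has 1 combined value and no replicate columns, and for the same reason leaving out a mouse was not run. A value counted as moved when it shifted by more than 1.5-fold. Of 106 alternative values, 87 did not move, 19 moved and 0 called values changed sign. Each scaling shifts the log2 ratios of all members by the same amount, so whether they moved was set by the size of that shift. Summing the rows of a gene could move none, as each member had 1 row. For these settings the counts therefore say nothing about how stable a member is. With equal sums over all loci the log2 ratios were 2.02 for *Slc5a5*, 1.18 for *Slc5a8*, 1.59 for *Slc5a9*, −0.14 for *Slc5a3* and −0.66 for *Slc5a6*, and 0.33 for the summed FPKM, since that scaling lowers each ratio by 0.63. With a pseudocount of 1, *Slc5a9* came to 1.54. Requiring more than 5 FPKM in both genotypes left 1 member higher, *Slc5a5*, and with no minimum 4 were higher, *Slc5a7* being added, and 1 was lower, *Slc5a2*. With equal sums over all loci 2 were higher, since *Slc5a9* fell under the minimum. Scaling to the luminal marker sum was chosen after seeing the data. It lowers each log2 ratio by 0.48, a shift of less than 1.5-fold, so no member could count as moved. With 1 value per genotype, how far mice of the same genotype differ cannot be seen.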
